A study of Rattus norvegicus with 12 samples.

Results

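Genes of the proteasome were examined in the urinary bladder of the rat after it had lost its nerves. Members were all genes whose symbol begins with Psma, Psmb, Psmc, Psmd, Psme, Psmf or Psmg, and 48 of the 18166 genes tested met that rule. Of these, 43 encode subunits, activators, inhibitors or assembly chaperones of the proteasome. The remaining 5 share only the prefix (the interacting proteins Psmc3ip and Psme3ip1, the copy Psmb3l2 and the pseudogenes Psma6-ps1 and Psmd1-ps1) and were kept apart. Within the 43, 5 immunoproteasome genes (Psmb8, Psmb9, Psmb10, Psme1 and Psme2) were set against the other 38. The rule used gene names and no measured value, but it was chosen with earlier results of these data known.

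The samples were urinary bladders of female Sprague Dawley rats of about 3 months, 6 after a sham operation and 6 taken 10 days after denervation. Both groups had surgery, and in the denervated group the ganglia were also frozen on both sides, which another field of the labels gives as freezing of the pelvicus. The deposited values are log2 expression values from 1 array per sample. Array medians lay between 5.82 and 5.90, and no 2 arrays were identical. On the main axis of variation over all genes, denervated replicate 2 fell between the sham arrays and the other 5 denervated arrays. The labels give smooth muscle as nearly the only cell type, and its markers were bright (10 measured, at a median percentile of 99.2 among all genes). The 9 urothelial markers were bright too (median percentile 97.0), so the samples were not muscle alone. Nothing in the labels says that each sample came from a separate animal, so p-values measure the spread between these samples. In whole tissue, fewer cells of a type and less RNA per cell cannot be told apart.

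The proteasome is the barrel-shaped protease that degrades proteins tagged with ubiquitin. Its 20S core has rings of alpha subunits, which gate the entrance, and rings of beta subunits, of which Psmb5, Psmb6 and Psmb7 carry the active sites. The 19S cap recognises, unfolds and feeds in the substrate. Interferons, above all interferon gamma, induce Psmb8, Psmb9 and Psmb10, which are built into new core particles in place of Psmb5, Psmb6 and Psmb7. The resulting immunoproteasome, abundant in blood-derived cells, yields peptides suited to presentation on class I histocompatibility molecules. Psme1 and Psme2 form the 11S activator, an alternative cap that is induced along with it.

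The stretches upstream of these genes are shown because interferon-driven transcription factors are known to act there. Whether they bear on how far each of the 5 immunoproteasome genes moved was not tested. Promoter sequences came from RefSeq (build GRCr8), which held 38 of the 43 members. The 250 bases before each start were searched on both strands for the interferon-stimulated response element (GAAA, any 2 bases, GAAA) and for the gamma-activated site, written TTCNNNGAA, which reads alike on both strands. Capitals mark these matches, and each sequence runs 5′ to 3′ on the strand of its gene.
Psmb8 (chr20:4657032-4657281, minus strand): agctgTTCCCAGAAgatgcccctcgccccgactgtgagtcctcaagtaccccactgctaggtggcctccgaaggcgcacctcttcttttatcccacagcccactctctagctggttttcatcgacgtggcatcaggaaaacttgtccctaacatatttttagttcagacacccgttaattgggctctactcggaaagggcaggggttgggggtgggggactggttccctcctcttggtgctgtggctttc
Psmb9 (chr20:4668750-4668999, plus strand): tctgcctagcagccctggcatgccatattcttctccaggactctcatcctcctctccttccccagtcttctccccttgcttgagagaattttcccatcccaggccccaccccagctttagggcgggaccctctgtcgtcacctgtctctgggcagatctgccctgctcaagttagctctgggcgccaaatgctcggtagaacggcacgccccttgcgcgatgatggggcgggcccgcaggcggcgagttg
Psmb10 (chr19:50743293-50743542, minus strand): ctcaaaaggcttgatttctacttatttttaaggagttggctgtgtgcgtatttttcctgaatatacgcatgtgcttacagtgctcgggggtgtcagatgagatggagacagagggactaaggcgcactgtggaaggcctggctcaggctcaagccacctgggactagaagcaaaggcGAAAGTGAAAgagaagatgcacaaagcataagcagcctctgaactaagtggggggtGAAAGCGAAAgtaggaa
Psme2 (chr15:33052752-33053001, minus strand): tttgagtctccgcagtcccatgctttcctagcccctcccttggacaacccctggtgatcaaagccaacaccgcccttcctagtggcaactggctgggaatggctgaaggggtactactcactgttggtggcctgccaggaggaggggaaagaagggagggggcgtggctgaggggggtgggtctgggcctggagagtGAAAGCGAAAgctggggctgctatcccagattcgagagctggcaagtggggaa

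The response element was spelled out 2 times upstream of Psmb10, as GAAAGTGAAA and GAAAGCGAAA, and 1 time upstream of Psme2, as GAAAGCGAAA. Psmb8 held a gamma-activated site, TTCCCAGAA, 245 to 237 bases before its start. The window of Psmb9, and that of Psme1, held neither. Across the sets, 2 of the 5 immunoproteasome genes had the response element, as did 3 of the 33 other members in the table (Psma4, Psmb3 and Psmd7; 9.09%), 17 of 25 interferon response genes (68%) and 3.29% of all 27455 promoters. The gamma-activated site stood in 1 of the 5, in 3 of the 33 others (9.09%), in 7 of the 25 interferon response genes (28%) and in 7.53% of all promoters. A match describes letters in a window and not a bound site. Psmb9 and the peptide transporter gene Tap1 lie head to head, with starts 457 bases apart, and Psmb8 and Tap2 are the next genes on that side. The stretch between Psmb9 and Tap1 held a response element, TTTCGGTTTC on the strand of Tap1, 121 to 112 bases before the start of Tap1 and outside the window of Psmb9. Psme1 and Psme2 are also close neighbours, with only Emc9 between them, whereas Psmb10 lies on another chromosome.

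Of the 5 immunoproteasome genes, Psmb8 and Psmb10 rose after denervation and Psmb9, Psme1 and Psme2 were not called. Psmb8 was 2.38-fold and Psmb10 1.52-fold higher. "Called", "rose" and "fell" refer to a Benjamini-Hochberg adjusted p below 0.05 over all 18166 genes in a limma fit of denervated against sham arrays, a rule that called 11.9% of all genes higher and 16.9% lower. Changes are log2 differences of group means with their standard error.

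Psmb8 encodes the chymotrypsin-like subunit that replaces Psmb5. Its sham values ran from 7.44 through a median of 7.71 to 7.97, and its denervated values from 8.55 through 8.76 to 9.93. All 6 denervated arrays lay above all 6 sham arrays, and denervated replicate 6 lay highest. The change was 1.25 ± 0.20 (SE, n = 6 per group, limma adjusted p = 0.000711), which placed Psmb8 at rank 357 of 18166 genes ordered from the largest rise. Without denervated replicate 6 it was 1.05 ± 0.11.

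Psmb10, which replaces Psmb7, had sham values of 7.64 at the lowest, 7.72 at the median and 7.92 at the highest. Denervated values were 8.14, 8.16 and 9.25. Here too the groups did not overlap, with 5 denervated arrays close together and replicate 6 far above them. The change was 0.61 ± 0.17 (limma adjusted p = 0.0151), and 0.43 ± 0.07 without denervated replicate 6 (adjusted p = 0.00120). Over all genes, 5.76% had every denervated value above every sham value.

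Psmb9, which replaces Psmb6, overlapped between the groups. Sham values ran from 7.68 through 7.83 to 8.21 and denervated values from 7.78 through 8.09 to 9.34. Its change of 0.41 ± 0.21 was not called (limma adjusted p = 0.172), with a 95% interval of -0.04 to 0.86. Without denervated replicate 6 it stood at 0.19 ± 0.11 (adjusted p = 0.195), so that array carried much of the estimate.

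The activator genes Psme1 and Psme2 were not called and overlapped between the groups. Psme2 ran from 9.71 through 9.89 to 10.11 in sham and from 9.79 through 10.04 to 10.78 in denervated arrays, a change of 0.21 ± 0.15 (adjusted p = 0.323, 95% interval -0.11 to 0.53). Without denervated replicate 6 it was 0.07 ± 0.09. Psme1 ran from 8.80 through 9.05 to 9.15 and from 8.76 through 9.06 to 9.20, a change of 0.04 ± 0.08 (adjusted p = 0.783). The upper ends of the 95% intervals were 0.22 for Psme1 and 0.53 for Psme2, and larger rises lay outside them.

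**Figure D1:**
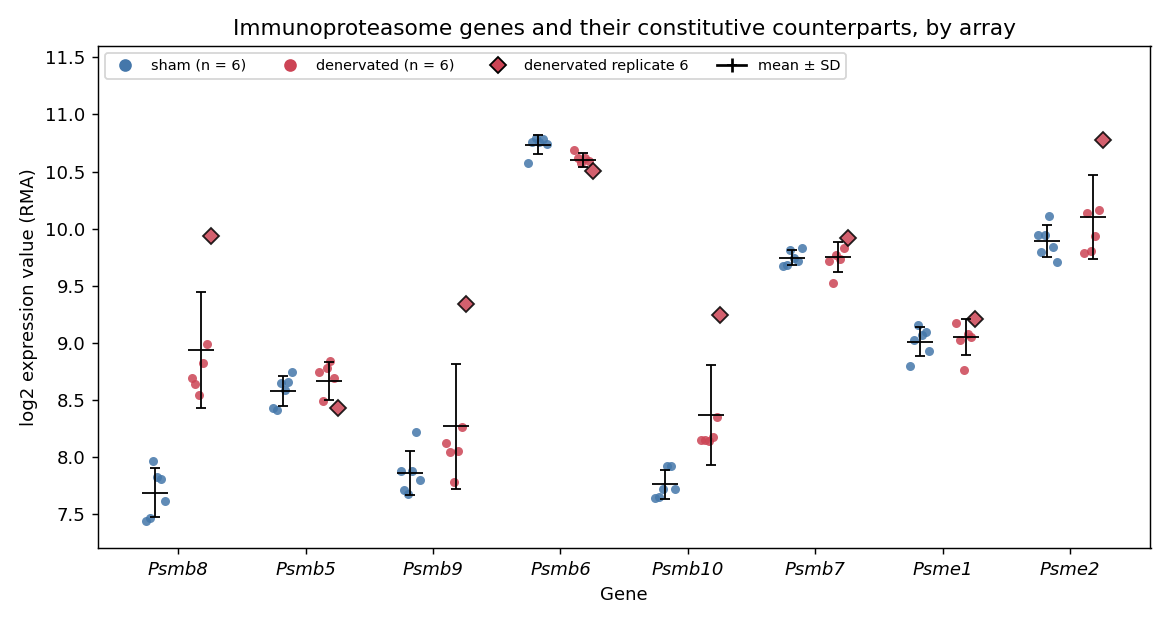
Log2 expression values (vertical axis) of the 5 immunoproteasome genes and of Psmb5, Psmb6 and Psmb7 in each array, with 6 sham arrays in blue, 6 denervated arrays in red and black bars for the mean ± SD. Psmb8 and Psmb10 did not overlap between the groups, and denervated replicate 6 (diamond) was the highest denervated array for all 5 immunoproteasome genes.

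None of the 3 constitutive catalytic subunits was called. Psmb5 ran from 8.41 through 8.62 to 8.74 in sham and from 8.43 through 8.71 to 8.84 in denervated arrays (0.08 ± 0.09, adjusted p = 0.528). Psmb7 ran from 9.68 through 9.73 to 9.83 and from 9.53 through 9.75 to 9.92 (0.01 ± 0.07, adjusted p = 0.964). Psmb6 ran from 10.57 through 10.76 to 10.79 and from 10.50 through 10.60 to 10.69, a change of -0.14 ± 0.06 that was not called (adjusted p = 0.0894; 0.0367 without sham replicate 1). The groups overlapped for all 3 genes. A second probe set of Psmb6 gave -0.09 ± 0.06.

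Each immune subunit was then set against the constitutive subunit whose place it takes, as the log2 difference within each array, which asks whether the 2 genes changed unequally and not which is more abundant. The difference Psmb8 minus Psmb5 went from -0.89 ± 0.16 (SD, n = 6) in sham to 0.28 ± 0.63 (SD, n = 6) in denervated arrays, a shift of 1.17 ± 0.27 (SE). Psmb10 minus Psmb7 shifted by 0.60 ± 0.16, from -1.98 to -1.38. In both pairs all 6 denervated arrays lay above all 6 sham arrays, which gives the smallest p that an exact two-sided permutation test of 6 against 6 can reach here (p = 0.00216, adjusted over the 3 pairs 0.00325). Psmb9 minus Psmb6 shifted by 0.54 ± 0.26, from -2.88 to -2.33, with 5 of 6 denervated arrays above all sham arrays, though 3 of them equalled the highest sham array to 2 decimals at -2.57 (exact permutation p = 0.0130, adjusted over the 3 pairs 0.0130). Without denervated replicate 6 the shifts were 0.92, 0.46 and 0.31, and the last had an adjusted exact p of 0.0303. All 3 catalytic pairs therefore shifted towards the immune subunit. In the Psmb9 pair the shift combined a change of 0.41 in Psmb9 with -0.14 in Psmb6, and neither gene alone was called over all genes.

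**Figure D2:**
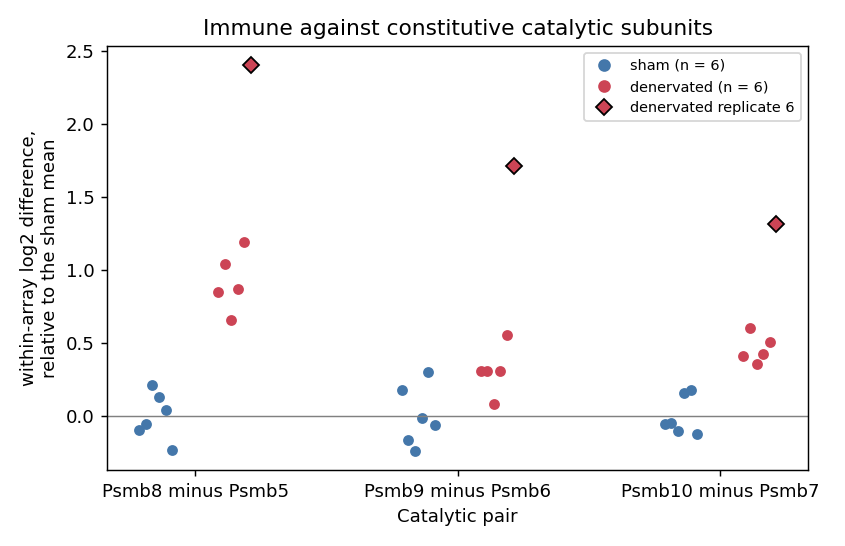
Log2 difference between each immune catalytic subunit and its constitutive counterpart within an array, drawn relative to the mean of the 6 sham arrays (vertical axis, log2). Sham arrays are blue and denervated arrays red. For the Psmb8 and Psmb10 pairs no denervated array reaches down to a sham array, and denervated replicate 6 (diamond) is highest in all 3 pairs.

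The immune subunits also differed from each other. Psmb8 minus Psmb9 lay between -0.43 and 0.29 in sham arrays and between 0.57 and 0.77 in denervated arrays, a shift of 0.84 ± 0.12. In denervated replicate 6, where both genes stood far above the other arrays, the difference of 0.60 was within the range of the other 5. Psmb8 minus Psmb10 went from between -0.20 and 0.24 to between 0.41 and 0.69, a shift of 0.64 ± 0.08. These pairs were chosen after their values were seen and are given without a test.

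Among the other 38 members, 0 rose, 3 fell and 35 were not called. The share called was 28.7% over all genes tested. Their median change was -0.06, beside -0.04 for all genes. The limma test at an unadjusted p under 0.05 gave 2 higher and 9 lower, and the exact rank-sum test with the same adjustment gave 0 higher and 4 lower (Psmc1, Psmd5, Psmd6 and Psmg1). Changes of the 38 lay between 0.822-fold and 1.17-fold, and the 95% intervals of all of them lay between 0.737-fold and 1.41-fold. The groups separated for 0 of the 38, beside 5.76% of all genes with denervated above sham and 7.59% with denervated below. These genes were bright and steady, 35 of them above the median gene, with a median SD of 0.06 among sham and 0.12 among denervated arrays, beside 0.12 and 0.18 for all genes.

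In the 20S core, 0 of the 6 alpha subunits and 0 of the 7 constitutive beta subunits were called in either direction by limma, and 0 alpha subunits and 1 beta subunit (Psmb6) had an unadjusted p under 0.05. The exact rank-sum test called 0 of the 13 as well. Alpha subunits changed by between -0.10 (Psma1) and 0.10 (Psma5), and Psma7 ran from 10.74 to 10.86 in sham and from 10.75 to 11.16 in denervated arrays (0.07 ± 0.07). Among the beta subunits without an active site, Psmb1 stood at 0.10 ± 0.06, Psmb2 at -0.07 ± 0.06, Psmb3 at -0.07 ± 0.07 and Psmb4 at 0.01 ± 0.06. Psmb11, the beta subunit of the thymus, gave a dim signal, at a mean of 5.14 over sham and 5.05 over denervated arrays, below the array medians.

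The 19 genes with a Psmc or Psmd symbol are here called cap members, and they include the chaperones Psmd5 and Psmd9. Of these, 12 of 19 had a negative change, beside 10436 of all 18166 genes. Of the 19 cap members 2 fell (Psmc1 and the chaperone Psmd5), beside 16.9% of all genes. Of the 6 ATPases of the cap, the ring that unfolds substrates, 5 had a negative change and 1 fell. Psmc1 ran from 9.27 through 9.35 to 9.40 in sham and from 9.08 through 9.13 to 9.32 in denervated arrays. Only denervated replicate 6, at 9.32, reached into the sham range. The change was -0.18 ± 0.05 (adjusted p = 0.0218), and leaving out sham replicate 2 ended the call (adjusted p = 0.0509). The other ATPases stood between -0.19 (Psmc4, adjusted p = 0.0881) and 0.07 (Psmc3), and Psmc4 was called lower without denervated replicate 6.

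Of the 13 members with a Psmd symbol, 1 fell, 0 rose and 12 were not called. Psmd5 is a chaperone that holds part of the ATPase ring before the cap is complete and is not a subunit of the finished particle. It ran from 8.03 through 8.11 to 8.16 in sham and from 7.68 through 7.77 to 8.06 in denervated arrays, with denervated replicate 2 alone inside the sham range. Its change of -0.28 ± 0.07 (adjusted p = 0.0106) was the largest fall among the 43. Psmd9, another chaperone of the ATPase ring, lay on the other side at 0.23 ± 0.08 and just missed the threshold (adjusted p = 0.0527). It ran from 7.54 through 7.65 to 7.74 and from 7.60 through 7.96 to 8.07, with denervated replicates 2 and 6 inside the sham range.

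The scaffold and lid subunits were closer to 0. The scaffolds Psmd1 and Psmd2 stood at -0.13 ± 0.06 and -0.05 ± 0.06. The ubiquitin receptor Psmd4 stood at 0.01 ± 0.08, and the deubiquitinase Psmd14 at 0.07 ± 0.09. The lid subunits Psmd6 (-0.17 ± 0.06, adjusted p = 0.0529) and Psmd7 (-0.17 ± 0.06, adjusted p = 0.0612) lay just outside the threshold and were called lower without denervated replicate 3 or 6. The remaining lid subunits ranged from -0.11 (Psmd12) to 0.14 (Psmd8), with Psmd11, Psmd13 and Psmd3 in between at -0.06, 0.09 and 0.01. Without denervated replicate 6, 6 of the 43 members were called lower in place of 3, namely Psmc1, Psmc4, Psmd5, Psmd6, Psmd7 and Psmd12.

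Outside the core and the 19S cap, 2 further regulators were measured. Psme4, the large activator PA200, stood at 0.18 ± 0.06 and just missed the threshold (adjusted p = 0.0518). It ran from 9.20 to 9.45 in sham arrays and up to 9.60 in denervated arrays, of which 5 lay above every sham array and replicate 2 lay among them at 9.28, and it was called higher without that array or without sham replicate 3. Psmf1, the inhibitor PI31, stood at 0.23 ± 0.12 (adjusted p = 0.196), and at 0.11 ± 0.07 without denervated replicate 6. The chaperones Psmg1, Psmg2 and Psmg4, which help to assemble the alpha ring, all had negative changes. Psmg1 ran from 8.37 through 8.48 to 8.60 and from 8.12 through 8.31 to 8.40, and only denervated replicate 3 reached into the sham range. It fell by 0.19 (SE 0.07, adjusted p = 0.0431), a call lost when any of 7 of the 12 arrays was left out (sham replicates 3, 4, 5 and 6 and denervated replicates 1, 4 and 6; adjusted p up to 0.0953). The call was also lost with further quantile normalization and with the replicate number as a block. Psmg2 and Psmg4 were not called (both -0.12).

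**Figure D3:**
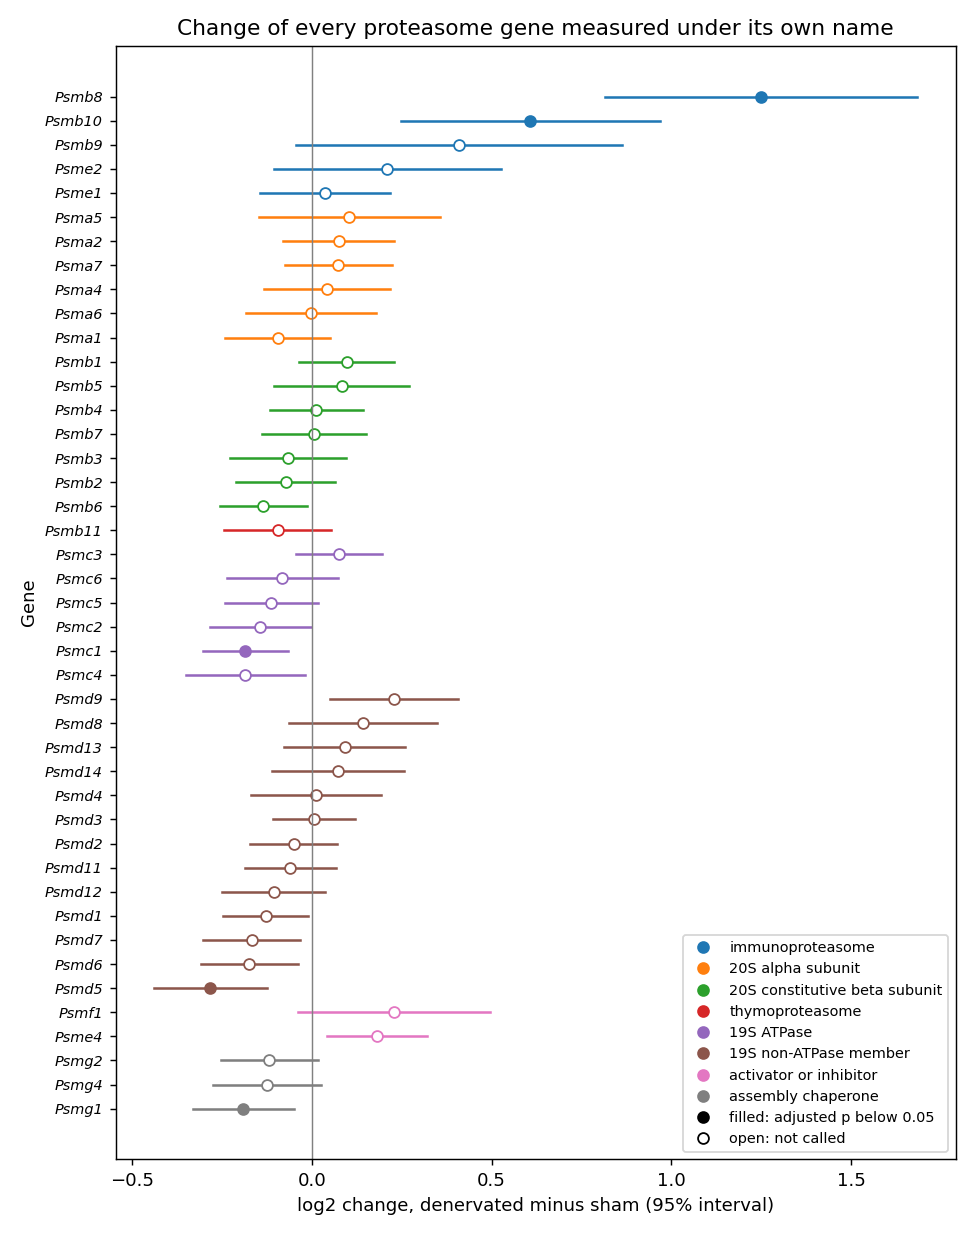
Log2 change from sham to denervated arrays (horizontal axis) with its 95% interval for each of the 43 proteasome genes, coloured by role, filled where the adjusted p was below 0.05. Psmb8 and Psmb10 stand clear to the right, while the other 38 members lie between -0.28 and 0.23.

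Genes around the proteasome were read from lists chosen by function. Of 26 measured genes for ubiquitin activation, delivery to the proteasome and proteasome-associated enzymes, 1 rose, 4 fell and 21 were not called, with a median change of -0.07. Over all genes, 11.9% were called higher and 16.9% lower, with a median change of -0.04. The deubiquitinase Uchl5, which trims chains at the cap, fell by 0.25 (SE 0.07, adjusted p = 0.0118), and Ube3a, a ubiquitin ligase that binds the proteasome, fell by 0.23 (adjusted p = 0.0222; 0.0529 without sham replicate 1). Faf1 (-0.20) and Ubqln2 (-0.21) bind ubiquitin and were called at adjusted p of 0.0258 and 0.0488, and Faf1 lost its call without sham replicate 5 or 6 or denervated replicate 5, Ubqln2 without any of 9 arrays. Ube3a and Faf1 were also not called by the exact rank-sum test or with the replicate block, and Ubqln2 not with the block. The cofactor Nploc4, named after its value was seen, rose by 0.16 (adjusted p = 0.0386), a call lost with arrays centred on their medians, with the replicate block and without any of 7 arrays (sham replicates 1, 2, 3 and 5 and denervated replicates 3, 5 and 6). The second cap deubiquitinase Usp14 (-0.18, adjusted p = 0.0599), the cap receptor Adrm1 (0.05) and the small cap subunit Sem1 (-0.07) were not called.

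Of 15 genes for assembly and transcription of the proteasome, 2 rose, 3 fell and 10 were not called. The shares over all genes were 11.9% higher and 16.9% lower. Nfe2l1, the transcription factor that restores proteasome genes when the proteasome is inhibited, ran from 9.18 to 9.31 in sham and from 9.00 to 9.12 in denervated arrays, with no overlap. It fell by 0.18 (SE 0.05, adjusted p = 0.0148; 0.0697 with the replicate number as a block). The CCAAT-binding subunits Nfyb (-0.40 ± 0.10) and Nfyc (-0.15 ± 0.05, named after its value was seen) fell too, both without overlap. CCAAT, which they bind, was present on either strand in 15 of the 33 other members' windows (45.5%), beside 34.3% of all promoters. Stat3, a transcription factor activated by cytokines, rose by 0.32 ± 0.06 and Sel1l, of the ubiquitin ligase in the endoplasmic reticulum, by 0.18 ± 0.05 (adjusted p = 0.0245; up to 0.0566, and not called, without sham replicate 1, denervated replicate 1 or denervated replicate 5). Pomp, the maturation chaperone needed for the immunoproteasome, stood at -0.02 ± 0.08.

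The list of antigen processing partners of the immunoproteasome, which also holds interferon signalling genes and regulators, rose in part. Of 25 measured, 11 rose, 1 fell and 13 were not called, with a median change of 0.30. Over all genes, 11.9% were called higher and 16.9% lower, with a median change of -0.04. The 11 include Stat2, Irf9 and Nlrc5, and the interferon gamma receptor genes Ifngr1 and Ifngr2 (these 2 named after their values were seen). Tap1, which carries peptides into the endoplasmic reticulum, ran from 6.88 to 7.23 in sham and from 7.61 to 9.43 in denervated arrays (1.13 ± 0.24, adjusted p = 0.00399), without overlap. Set against Psmb9, its neighbour across the shared upstream stretch, Tap1 minus Psmb9 lay between -0.99 and -0.61 in sham and between -0.36 and 0.13 in denervated arrays, a shift of 0.72 ± 0.10 for a pair chosen after its values were seen. Tap2 was not called (0.34 ± 0.16, adjusted p = 0.136). The 1 that fell was the peptidase Thop1, which degrades proteasome products (-0.21 ± 0.06, named after its value was seen).

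Regulators upstream, counted in the same list, were uneven. Stat2 (1.36 ± 0.25) and Irf9 (1.14 ± 0.18), of the complex that binds the response element, rose, as did Nlrc5, the class I transactivator (1.07 ± 0.29, adjusted p = 0.0137). Irf1 (0.39 ± 0.16, adjusted p = 0.0814) was not called with all arrays and was called without denervated replicate 6 (adjusted p = 0.0276). Ifng, interferon gamma itself, was dim (sham mean 4.33, denervated mean 4.60) and was not called (0.27 ± 0.14, adjusted p = 0.189). Of 29 interferon response genes, 28 rose, by a median of 1.48 over the list, led by Mx1 (3.74), Irf7 (3.19), Cxcl9 (3.01) and Isg15 (2.90). The members of both lists were chosen with earlier results of these arrays known, so their direction is not independent evidence.

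Across the denervated arrays, the 3 immune beta subunits were ordered much as the interferon response list was, and as some other lists were. Their mean distance from the sham mean was lowest in denervated replicate 3 (0.39), followed by replicates 2 (0.51), 1 (0.55), 4 (0.58), 5 (0.77) and 6 (1.74). The interferon response list was lowest in replicate 3 as well (0.61), followed by 1 (1.18), 2 (1.35), 4 (1.95), 5 (2.17) and 6 (3.79). Replicate 2, the odd one over all genes, lay within the range of the other denervated arrays in both measures. The antigen processing partners followed the same order as the beta subunits, from 0.17 in replicate 3 to 0.88 in replicate 6. The summed lymphocyte markers followed the order of the interferon list, from 11.87 to 12.84 on the log2 scale. By mean distance from the sham mean, the measure used for the other lists here, they did not. That order was replicates 3 (0.533), 4 (0.772), 1 (0.775), 2 (0.873), 5 (0.982) and 6 (1.643). The macrophage list was lowest in replicate 2 (0.96) and highest in replicate 6 (1.78). Replicate 6 was the highest denervated array for 5 of 5 immunoproteasome genes and for 28 of 29 interferon response genes, beside 21.8% of all genes. It was highest too for 21 of 25 antigen processing partners and 9 of 12 macrophage markers. It was also highest for 8 of the 13 constitutive core subunits and 9 of the 19 cap members. The constitutive core lay 0.18 above the sham mean in replicate 6 and between -0.13 and 0.03 in the other 5 denervated arrays.

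**Figure D4:**
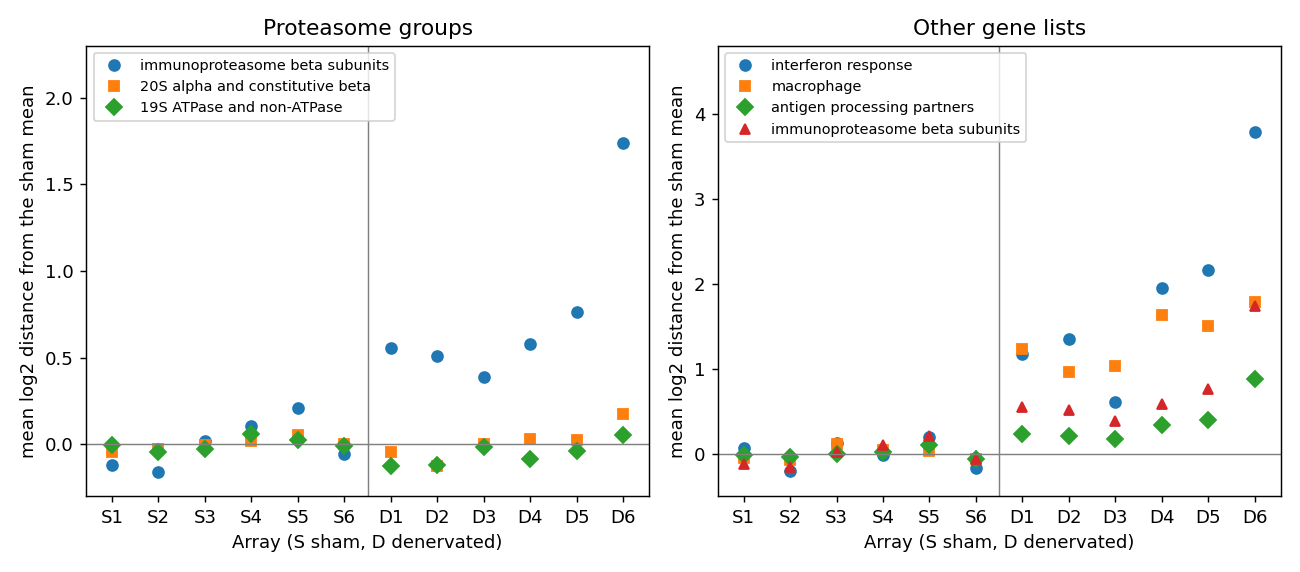
Mean log2 distance from the sham mean (vertical axis) in each of the 12 arrays (S1 to S6 sham, D1 to D6 denervated), with proteasome groups on the left and other gene lists beside the immune beta subunits on the right. The immune beta subunits rise from 0.39 in D3 to 1.74 in D6. The constitutive core and the 19S cap members (all Psmc and Psmd genes) stay between -0.13 and 0.18 in the denervated arrays.

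Markers of immune cells, which hold immunoproteasome without stimulation, were also higher. Of 12 macrophage markers 11 rose, and of 15 measured lymphocyte markers 11 did. For these and the marker counts below, the shares over all genes were 11.9% called higher and 16.9% lower. The macrophage marker not called was Cd163 (0.21 ± 0.19, limma adjusted p = 0.465, named after its value was seen). The common leukocyte antigen Ptprc rose by 1.80 ± 0.25, the macrophage genes Cd68 by 2.20 ± 0.19 and Lyz2 by 2.11 ± 0.14, and Cd3e, a chain of the T cell receptor complex, by 0.48 ± 0.11. The 4 lymphocyte markers not called were Cd3g, of the same complex (-0.19 ± 0.18), and the B cell genes Ms4a1 (0.08 ± 0.11), Cd79a (0.02 ± 0.07) and Cd79b (-0.02 ± 0.08). Jchain, a further gene of the B cell lineage on that list, rose by 2.92 ± 0.51 (limma adjusted p = 0.00114, named after its value was seen). The summed level of the macrophage list lay between 12.41 and 12.54 on the log2 scale in sham and between 13.54 and 14.43 in denervated arrays, and that of the lymphocyte list between 11.10 and 11.29 and between 11.87 and 12.84. The lymphocyte list holds Ptprc, of all leukocytes, and Cd4, which rat macrophages also carry, so its sum is not one of lymphocytes alone. Both sums were highest in denervated replicate 6. The lymphocyte sum was lowest of the denervated arrays in replicate 3, and the macrophage sum in replicate 2. The part of these cells in the rise of Psmb8 and Psmb10 was not tested. Of 10 smooth muscle markers 7 fell, 1 rose (Smtn, 0.51 ± 0.15, named after its value was seen) and 2 were not called, and their summed level went from between 15.49 and 15.66 to between 15.04 and 15.47. All 9 urothelial markers fell, their summed level going from between 14.80 and 15.01 to between 14.05 and 14.42. Of 6 endothelial markers 3 rose, with sums of 10.96 to 11.05 in sham and 11.28 to 11.72 in denervated arrays. Of 8 fibroblast markers 4 rose, with overlapping sums of 14.74 to 14.99 and 14.92 to 15.30. Of 6 Schwann cell markers 5 fell, with sums of 10.78 to 11.07 and 9.21 to 9.99. The part of these cells in the small changes of the constitutive and cap genes was not tested.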

How the data were processed

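Total RNA from 6 sham and 6 denervated rat bladders had been labelled with biotin and read on 1 array each. The values are log2 expression values deposited by the authors, made with RMA in Affymetrix Expression Console 1.4.1.46 per the submitters' processing notes. The array's annotation build was not stated in the material used. Of 36685 probe sets, 18511 carry a single gene in the platform table, and the probe set with the highest mean stood for a gene, which left 18166. Psma3 and Psme3 share their probe sets with other genes and were not analysed under a name. Probes of families with close copies can share signal.

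Groups were compared with limma 3.58.1 in R 4.3.3 (lmFit, eBayes, two-sided, no filter), adjusted over all genes. Intervals are 95% intervals of that fit, unadjusted. The scripts were tested on simulated data. The members, lists and naming rule were chosen with earlier results of these data known. Named were all members, up to 4 called genes of each list with the largest change, and a set of regulators and markers fixed by name. Alternatives were normalization, a filter on dim genes, the variance model, the choice of probe set, the test, a minimum change of 1.2-fold, a replicate block and leaving out each array. Same-numbered arrays did not deviate together, and no block entered the main comparison. Batch information was not analysed here.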

Additional observations from a re-analysis of the deposited data

Results flagged for a closer look

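Among 170 groups of 6 values examined, for 85 genes or gene pairs, 21 held a lowest or highest array set far apart from the rest by Dixon's test, which chance gives for about 1 group in 20. Of these, 11 fell on denervated replicate 6. It stood at 9.93 for Psmb8 (the next array at 8.99), 9.34 for Psmb9 (8.26), 9.25 for Psmb10 (8.35), 10.24 for Psma4 (9.82), 10.94 for Psmb2 (10.73) and 9.74 for Psmf1 (9.18). It also stood apart for Tap2 (8.54, next 7.72) and Irf1 (9.08, next 8.21). In the within-array differences it lay at 1.51 for Psmb8 minus Psmb5, -1.16 for Psmb9 minus Psmb6 and -0.67 for Psmb10 minus Psmb7. Denervated replicate 2 was set apart at the low end for Psme4 (9.28) and Lyz2 (12.11).

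In the sham group, replicate 5 was high for Psma4 (9.91), Psmb2 (10.91) and Psmb9 (8.21). Replicate 4 was high for Psmc5 (8.09) and low for Psmc3ip (7.15). Replicate 1 was low for Psmb6 (10.57), replicate 6 low for Ubqln2 (7.68), and replicate 3 high for Psmb8 minus Psmb10 (0.24).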

How the results depend on the processing

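Psmb8 was called higher under all 20 alternatives (changes of 1.05 to 1.33), and Psmb10 under 19, all but the test against a 1.2-fold change. The 3 catalytic pairs kept their direction and an adjusted exact p below 0.05 in all 16 settings run for them. With each array left out in turn, Psmb8 minus Psmb5 ranged from 0.92 to 1.27, Psmb9 minus Psmb6 from 0.31 to 0.64 (adjusted p up to 0.0476) and Psmb10 minus Psmb7 from 0.46 to 0.65. Among the 43 members the count called higher was 2, and the count called lower 3. It was 4 higher and 5 lower without the dimmest 25% of genes and with trend and robust variance, which added Psmd9 and Psme4 above and Psmd6 and Psmd7 below, so that 2 of the other 38 were higher and 5 lower. It was 5 lower (the same 5 of the 38) with arrays centred on their medians. With further quantile normalization Psmc1, Psmd5, Psmd6 and Psmd7 were lower and Psmg1 was not called. Against a change of 1.2-fold, 1 member was higher (Psmb8, the only immunoproteasome gene) and 0 lower, a test that asks for a larger change. Leaving out 1 array gave 2 to 4 higher and 2 to 6 lower, 0 to 2 higher and 2 to 6 lower among the other 38, and 2 immunoproteasome genes throughout. With the replicate block 1 member was lower (Psmd5), also among the 38, and 2 were higher. Same-numbered arrays had correlations of deviations between -0.11 and 0.10, 1 of 6 numbers was matched best by itself, and the block is thus only a shared number. The cause of these shifts was not tested. The number of arrays limits the precision.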

Other observations

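Ubiquitin ligases known from wasting skeletal muscle were lower or not called. Of 16 measured, 7 fell, 0 rose and 9 were not called by limma, with a median change of -0.14 (at an unadjusted p under 0.05, 0 higher and 7 lower). Over all genes, limma called 16.9% lower and 11.9% higher, with a median change of -0.04. The exact rank-sum test also called 0 higher, but it called fewer than 7 lower. Fbxo32, the muscle ligase atrogin-1, ran from 10.44 to 10.79 in sham and from 9.04 to 10.62 in denervated arrays (-0.81 ± 0.20, adjusted p = 0.00804; 0.0850 by the exact rank-sum test). Fbxo30 fell by 0.67 ± 0.11, Trim32 by 0.55 ± 0.06 and Wwp1 by 0.53 ± 0.12, the first 2 without overlap between the groups, while Wwp1 was not called by the rank-sum test. Trim63, known as MuRF1 and named after its value was seen, was dim (5.13 in sham, 5.04 in denervated arrays) and was not called (-0.09 ± 0.11).

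Of the 5 genes that share only the prefix, Psmc3ip fell. It encodes a partner of the strand exchange proteins of meiotic recombination and is no proteasome subunit. Its values ran from 7.15 through 7.38 to 7.45 in sham and from 6.53 through 6.85 to 7.05 in denervated arrays, without overlap (-0.53 ± 0.09, adjusted p = 0.000940). Every denervated value below every sham value was seen for 7.59% of all genes. Psme3ip1 stood at 0.01 ± 0.07, and Psmb3l2 and Psma6-ps1 gave dim signals and were not called.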
